A study of Mus musculus with 8 samples.

Results

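Cycling T cells are T lymphocytes caught while they copy or divide their DNA, and they were picked out of dissociated mouse livers by their transcripts. A barcode was kept if it held more than 500 genes and under 25% mitochondrial UMIs (a UMI, or unique molecular identifier, tags 1 captured mRNA molecule). A kept barcode was a cycling T cell if it held at least 2 UMIs of Top2a and Mki67 together with at least 1 of Top2a, at least 2 UMIs of Cd3d, Cd3e and Cd3g together, and 0 UMIs of Klrb1c, Trdc, Foxp3, Cd79a and Csf1r. This rule gave 529 cells, which were 0.657% of the 80474 kept cells and 7.89% of the 6702 T cells that met the same Cd3 and exclusion limits. The other 6173 T cells, below the Top2a and Mki67 limit, are called non-cycling.

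Livers of 8 wild-type mice of the C57BL/6 strain were perfused and dissociated with enzymes, red blood cells and dead cells were removed, and 1 droplet library per mouse (10x Genomics, 3' chemistry V3) was made with no sorting of cell types. The 2 control mice received a normal diet and drinking water. The 3 HFD+F+CCl4 mice received a high-fat diet, a fructose solution and intraperitoneal carbon tetrachloride (CCl4), and the 3 WD+F+CCl4 mice received the same agents with a western diet in place of the high-fat diet. The study used both as models of nonalcoholic steatohepatitis (NASH) with fibrosis, and since CCl4 was given in both and not in controls, diet, fructose and CCl4 cannot be told apart in a comparison with control. The sources used here do not give the age of the mice.

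A T cell that enters division passes through S phase, in which DNA is copied, and through G2 and mitosis (M phase), in which the chromosomes are condensed and separated. Genes for copying DNA are switched on early in this course, and genes for the spindle, the kinetochore and the mitotic kinases peak later. In the liver, T cells divide after they meet their antigen with costimulation, and they change their receptors, metabolism and homing genes as they do so.

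Members carried a median of 6017 UMIs, against 2388 in non-cycling T cells. Depth differed strongly between mice. The members summed to 1200881 UMIs in control replicate 1 and 91985 in control replicate 2. In HFD+F+CCl4 replicates 1 to 3 they summed to 76660, 747878 and 583625 UMIs. In WD+F+CCl4 replicates 1 to 3 they summed to 116558, 175108 and 786082 UMIs. A single UMI was therefore worth 0.833 CPM in control replicate 1 and 10.9 CPM in control replicate 2, and the low levels of the second control mouse rest on few molecules. That mouse had the shallowest cells, with a median of 1453 UMIs per member.

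The label was checked against genes that the rule did not use. A transcript of a constant region of the alpha-beta T cell receptor (Trac, Trbc1 or Trbc2) was seen in 519 of the 529 members (98.1%) and in 95.8% of non-cycling T cells. Of the members, 31 held at least 20 UMIs of MHC class II genes and 3 held at least 20 UMIs of a list of neutrophil genes. Together with the 10 members that had no receptor constant UMI, these made up 39 cells that stand apart, and results that rest on the members were also computed without them. By a wider limit, of at least 2 UMIs of myeloid or of B cell genes, 450 members (85.1%) and 66.2% of non-cycling T cells were marked. Of the members these were 69.7% and 46.7% in control mice, 100%, 96.3% and 97.6% in HFD+F+CCl4 mice and 82.4%, 88.2% and 95.2% in WD+F+CCl4 mice. Of non-cycling cells they were 39.9% and 68.4%, 98.9%, 93.6% and 84.7%, and 63.7%, 63.8% and 83.3% in the same order. Every NASH mouse thus lay above both controls in members. The part of this in comparisons of NASH with control mice was not tested. Of the members, 8 carried a barcode that also occurred in another library, and 0 shared it with a member there. Scrublet, which ranks cells by their likeness to simulated doublets, placed 35 members among the highest ranked cells.

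Control and NASH libraries stood apart in some genes when all kept cells were pooled. In all kept cells the mitochondrial gene mt-Nd3 was at 3.10 and 4.52 CPM (UMI counts scaled to the same total in every library) in the control libraries and at 521 to 1402 CPM in the NASH libraries. Gm28438 went the other way, at 457 and 259 CPM in control and at most 1.38 CPM in NASH libraries. Satb1 was at 347 and 217 CPM in control and 13.2 to 32.3 CPM in NASH libraries, and Igtp at 144 and 124 CPM against 27.2 to 38.4 CPM. T cells made up 19.4% and 12.8% of kept cells in control and 1.79% to 9.27% in NASH libraries. The split was not examined in each cell type on its own. These genes were chosen after their values were seen, and their split cannot be told apart from the groups, so that the same genes in cycling T cells are given with this split named beside them. The study's methods describe 1 counting pipeline for all libraries, while the header of the joint matrix names an earlier version of the program than they do. How the split arose, and its part in other gene differences between control and NASH mice, was not tested.

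The genes of the rule are described without a test. Top2a, the topoisomerase that untangles replicated DNA, was seen in 100% of members with a median of 6 UMIs, and Mki67, a coat protein of mitotic chromosomes, in 83.2% with a median of 4 UMIs. Cells just outside the limit were the 573 T cells with 1 UMI of Top2a and Mki67 together, in which genes of a G2 and M phase list made up 0.122% of UMIs. The 95 members with exactly 2 such UMIs had 0.215%, and the 434 members with 3 or more had 1.06%. The 5550 T cells with 0 such UMIs had 0.0850%. The members near the limit were thus closer to non-cycling cells in these genes than the other members were. A further 536 cells passed both the cycling and the Cd3 limits but held a UMI of an excluded gene, 170 in control and 366 in NASH mice. Members numbered 167 and 362. The excluded genes differed by group. Csf1r was held by 315 of the 536 cells, 27 in control and 288 in NASH mice, and Cd79a by 90, 76 in control and 14 in NASH mice. The part of these exclusions in the shares below was not tested.

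Free RNA and doublets can also meet such limits, and the share was set beside cells that should lack it. Among 1688 neutrophils (at least 10 UMIs of S100a8 and S100a9, a UMI of Retnlg and 0 of Cd3 and Csf1r), which are past division, 1.24% passed the Top2a and Mki67 limit (median depth 1539.5 UMIs), against 7.89% of T cells (median depth 2466 UMIs). Among 4306 B cells, 8.80% passed the Cd3 limit, with 13.7% in control mice and 2.84% in NASH mice. Among Kupffer cells, the macrophages of the liver, 10 of 22 passed it in control mice (45.5%) and 4.06% in NASH mice. The part of free RNA in the Cd3 limit was not tested further.

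Of the 10 genes that led the profile of the members, 5 had a promoter in the table used, and 4 of these are shown, 3 that hold both motifs searched and the leading gene, Nusap1, which holds neither. The promoter of Pclaf, not shown, holds CCAAT and not TTTGAA. They are RefSeq sequences on GRCm38.p6, from 250 bases before to 50 bases after the gene's start, written in the direction of the gene. Capitals mark TTTGAA, the cell cycle homology region that represses late cell cycle genes outside division, and CCAAT, the box bound by NF-Y, each on either strand (TTCAAA and ATTGG on the other). Nusap1, which bundles spindle microtubules, starts within chr2:119618048-119618347 (plus strand). Ube2c, which encodes the ubiquitin-conjugating enzyme of the anaphase-promoting complex, starts within chr2:164769679-164769978 (plus strand). Cenpf, a kinetochore protein, lies at chr1:189688037-189688336 (minus strand), and Kif11, the motor that pushes spindle poles apart, at chr19:37376132-37376431 (plus strand).
Nusap1: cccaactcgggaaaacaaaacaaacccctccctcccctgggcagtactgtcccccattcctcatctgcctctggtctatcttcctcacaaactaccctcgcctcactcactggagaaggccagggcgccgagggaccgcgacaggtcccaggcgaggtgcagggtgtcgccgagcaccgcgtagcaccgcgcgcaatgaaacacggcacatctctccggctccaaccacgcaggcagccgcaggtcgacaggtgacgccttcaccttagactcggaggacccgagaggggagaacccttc
Ube2c: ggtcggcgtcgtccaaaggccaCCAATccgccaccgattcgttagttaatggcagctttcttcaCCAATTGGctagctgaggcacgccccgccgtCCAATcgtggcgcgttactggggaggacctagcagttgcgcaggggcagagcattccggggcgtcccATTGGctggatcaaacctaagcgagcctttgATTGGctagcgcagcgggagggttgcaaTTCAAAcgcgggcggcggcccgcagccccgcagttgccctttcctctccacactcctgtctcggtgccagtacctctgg
Cenpf: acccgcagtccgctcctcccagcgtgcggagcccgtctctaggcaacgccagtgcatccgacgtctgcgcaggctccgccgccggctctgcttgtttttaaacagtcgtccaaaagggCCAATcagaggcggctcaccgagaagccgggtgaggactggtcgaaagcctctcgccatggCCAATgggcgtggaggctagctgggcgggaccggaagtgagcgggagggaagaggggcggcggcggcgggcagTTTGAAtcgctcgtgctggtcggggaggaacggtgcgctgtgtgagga
Kif11: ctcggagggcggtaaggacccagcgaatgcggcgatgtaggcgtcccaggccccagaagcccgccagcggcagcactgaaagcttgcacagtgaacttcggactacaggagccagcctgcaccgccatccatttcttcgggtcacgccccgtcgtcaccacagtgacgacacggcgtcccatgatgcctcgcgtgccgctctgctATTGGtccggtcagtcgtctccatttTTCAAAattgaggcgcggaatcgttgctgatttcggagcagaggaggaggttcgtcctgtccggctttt
The TTTGAA letters lie 29 bases before the start in Ube2c and 19 bases before it in Kif11, and 3 bases after it in Cenpf. In Ube2c, a CCAAT and an ATTGG overlap in CCAATTGG.

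Over 32851 RefSeq mouse promoters of this length, 17.9% held TTTGAA and 37.4% held CCAAT. Of the 30 genes on the G2 and M phase list, 26 had a promoter in the table, of which 19 (73.1%) held TTTGAA and 20 (76.9%) held CCAAT. The S phase list differed in these letters. Of its 27 promoters (25 of 30 genes), 2 held TTTGAA and 17 held CCAAT, whereas 8 held the E2F letters TTTGGCGC or TTTCGCGC, which 0.813% of all promoters and 1 of the 26 G2 and M phase promoters held. A match of letters is a description of these windows and not a bound site.

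The share of T cells in cycle varied more within the models than between them and the controls. It was 5.82% (95% exact Clopper-Pearson interval 4.85 to 6.91) and 8.41% (6.20 to 11.1) in the 2 control mice. In HFD+F+CCl4 mice it was 8.5% (5.03 to 13.3), 14.3% (11.8 to 17.0) and 10.1% (8.10 to 12.4). In WD+F+CCl4 mice it was 3.37% (1.97 to 5.34), 4.75% (3.31 to 6.57) and 9.67% (7.98 to 11.6). HFD+F+CCl4 replicate 2 had the highest share and WD+F+CCl4 replicate 1 the lowest, and the control mice lay inside the range of the NASH mice. The mean was 8.44% ± 3.94 (SD, n = 6) in NASH and 7.11% ± 1.83 (SD, n = 2) in control mice, higher by 1.32 percentage points in NASH mice (exact two-sided permutation test, p = 0.679, adjusted p = 0.679 over 4 tests, smallest possible p = 0.0357). The direction was not stable, since the difference was -0.551 with each cell thinned to 1000 UMIs, -4.84 without cells holding myeloid or B cell UMIs (5 NASH and 2 control mice left) and 0.0282 without control replicate 1. These intervals cover counting error only. The same limit was passed by 1 of 131 neutrophils in control mice (interval 0.0193 to 4.18%) and by 20 of 1557 in NASH mice (1.28%, 0.786 to 1.98%).

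WD+F+CCl4 mice had a lower mean share than HFD+F+CCl4 mice, 5.93% ± 3.31 against 10.95% ± 2.98 (SD, n = 3 each), but their ranges overlapped, since WD+F+CCl4 replicate 3 lay above HFD+F+CCl4 replicate 1. The difference of -5.02 percentage points did not pass an exact two-sided permutation test (p = 0.2), which could not go below 0.1 with 3 mice against 3. It was -2.32 and -2.92 with cells thinned to 1000 and 2000 UMIs, and -2.67 with cells of more than 1000 genes.

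Of all kept cells, cycling T cells made up 1.13% and 1.08% in the control mice. The values were 0.152%, 1.06% and 0.770% in HFD+F+CCl4 mice and 0.142%, 0.345% and 0.896% in WD+F+CCl4 mice, so that every NASH mouse lay below both controls. NASH minus control came to -0.545 percentage points (p = 0.143 by an exact permutation test, adjusted p = 0.571). It was -1.23 with cells thinned to 2000 UMIs and -1.48 with cells of more than 1000 genes, each at the smallest p the exact test allows (0.0357), but -0.248 with at least 2 UMIs of Top2a and 1 of Mki67 (p = 0.429) and -0.403 without the cells that stand apart (p = 0.25). All T cells by the same limits made up 19.4% and 12.8% of kept cells in control mice and between 1.79% and 9.27% in NASH mice, and fewer T cells and more captured cells of other types cannot be told apart in such a share.

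**Figure D1:**
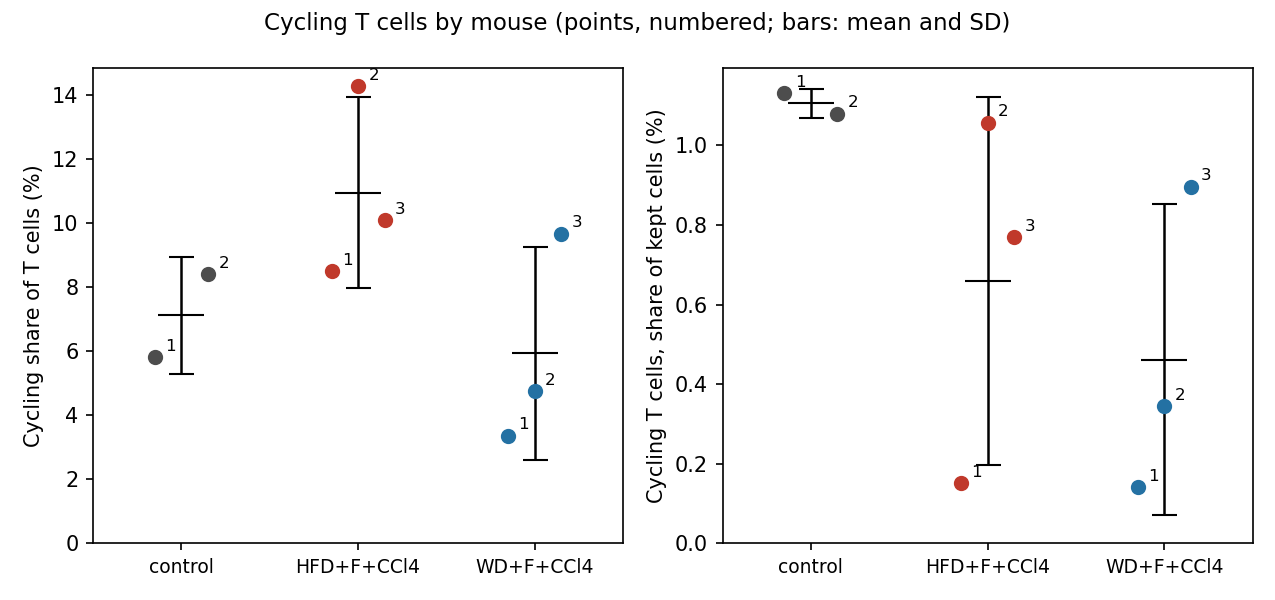
Cycling T cells in each mouse as a share of T cells (left panel, %) and of all kept cells (right panel, %); numbered points are mice, horizontal bars the group mean and error bars the SD. The control mice (5.82% and 8.41%) sit inside the spread of NASH mice on the left, and above all 6 NASH mice on the right.

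Against non-cycling T cells of the same mice, the members were set apart by a broad cell division program. This contrast is the one the rule was built on, and its values are given as a description. In edgeR's quasi-likelihood fit over 7664 genes with the mouse as a block, 1505 genes were higher and 1857 lower in cycling cells at an adjusted p under 0.05, which is 43.9% of the genes (19.6% higher and 24.2% lower). The median log2 fold change of all genes tested was -0.09. Without the cells holding myeloid or B cell UMIs, 327 genes were called. Only the 2 control mice and WD+F+CCl4 replicate 3 had at least 5 members left for that fit.

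Mitosis genes differed most. All 30 G2 and M phase genes were tested and 29 were higher, with a median log2 fold change of 4.86. Nusap1 stood at 334 and 318 CPM in cycling cells of the control mice, at 293, 424 and 330 CPM in HFD+F+CCl4 mice and at 574, 419 and 442 CPM in WD+F+CCl4 mice, and at no more than 13.8 CPM in the non-cycling cells of any mouse (log2 fold change 6.22, SE 0.20). Ube2c ranged from 176 CPM in HFD+F+CCl4 replicate 1 to 539 CPM in WD+F+CCl4 replicate 1 in cycling cells and stayed at or below 17.9 CPM in non-cycling cells (6.03, SE 0.19). Kif11 was the steadier of these genes, between 140 and 237 CPM in cycling cells of the 8 mice (5.47, SE 0.18). In each of these genes the lowest cycling value lay above the highest non-cycling value. Cenpf, Ccna2 (cyclin A2) and Tpx2 (a spindle assembly factor) had log2 fold changes of 5.81, 5.58 and 5.49.

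Hmgb2, a chromatin protein and the most abundant gene of the G2 and M phase list, stood at 2520 to 4641 CPM against 340 to 550 CPM (3.07, SE 0.12). The summed level of the list was close in all 8 mice, from 9121 to 10341 CPM in cycling cells against 719 to 1173 CPM in non-cycling cells. The S phase list summed to between 4386 and 7292 CPM against between 820 and 1194 CPM, and all 30 of its genes were higher (median log2 fold change 2.47). Its most abundant gene was Pcna, the sliding clamp of DNA polymerase, at 313 to 1032 CPM against 105 to 174 CPM (2.05, SE 0.12). A further gene of replication was Pclaf, the clamp-associated factor of DNA replication, at 621 to 918 CPM in cycling cells and 7.81 to 51.0 CPM in non-cycling cells (5.45, SE 0.20). Rrm2, the subunit that ribonucleotide reductase needs to make DNA precursors, stood at 703 CPM in HFD+F+CCl4 replicate 1 and at 201 to 433 CPM in the others (5.26, SE 0.18). HFD+F+CCl4 replicate 1 had the highest level of the S phase list, with 17 members behind it.

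Chromatin genes moved with the cycle genes. All 15 genes of the chromatin and histone list were higher (median 2.70), and their sum was 15731 to 20170 CPM against 2274 to 2806 CPM. Hist1h2ap, a replication-dependent histone H2A gene, stood at 989 and 1759 CPM in cycling cells of control mice, at 1465, 3291 and 2773 CPM in HFD+F+CCl4 mice and at 4743, 2930 and 4161 CPM in WD+F+CCl4 mice, and at no more than 83.3 CPM in non-cycling cells (5.80, SE 0.20). Ezh2, the methyltransferase that places histone H3 lysine 27 marks, was at 189 to 302 CPM against 32.7 to 53.7 CPM (2.60, SE 0.11). Reads of histone genes with near-identical copies may be split between them, so single histone genes are uncertain.

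**Figure D2:**
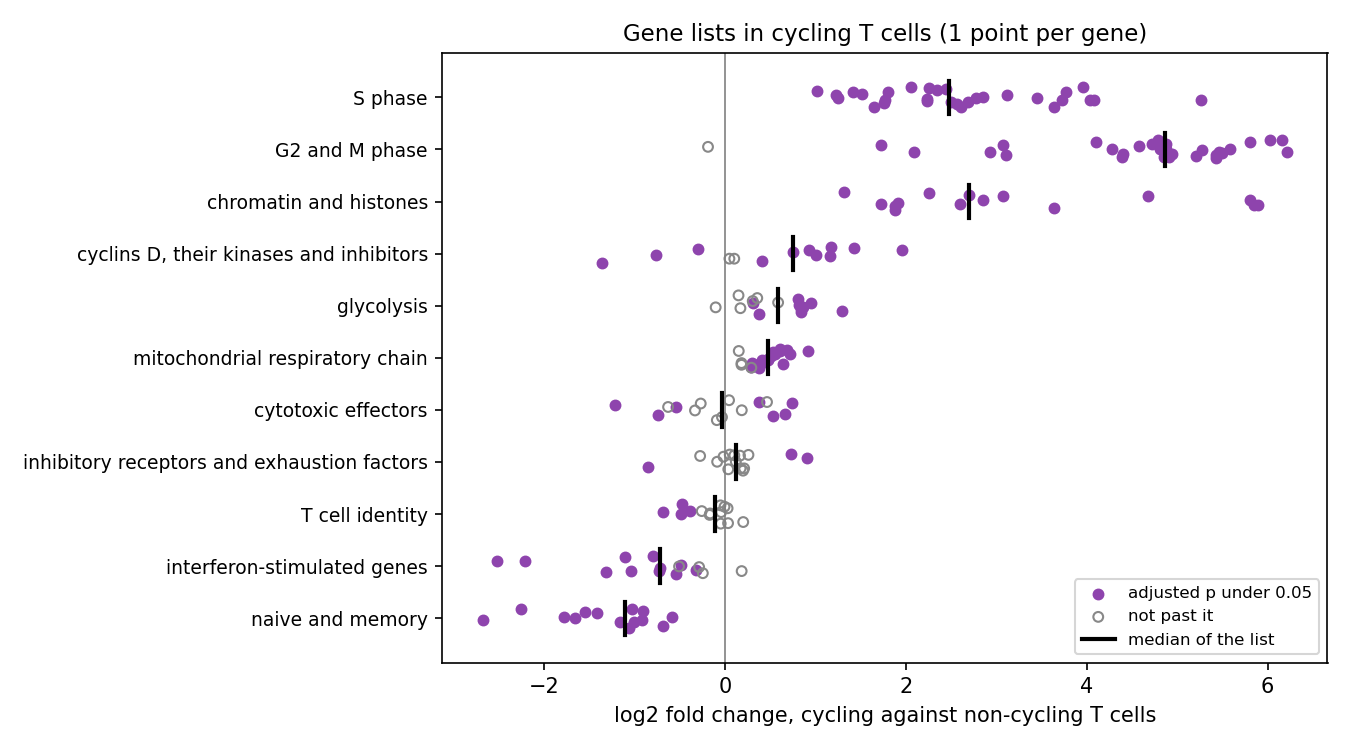
Log2 fold change of each gene in cycling against non-cycling T cells (horizontal axis), grouped by gene list (vertical axis); filled points have an edgeR adjusted p under 0.05, open points do not, and black bars are list medians. The G2 and M phase list lies farthest right (median 4.86), and the naive and memory list lies left of 0 (median -1.11).

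Genes of quiescent and circulating T cells were lower in the members. All 14 genes of the naive and memory list were lower, with a median log2 fold change of -1.11. Il7r, the receptor chain for the survival cytokine interleukin 7, stood at 84.9 and 109 CPM in cycling cells of control mice, at 70.3, 38.6 and 46.6 CPM in HFD+F+CCl4 mice and at 203, 140 and 34.5 CPM in WD+F+CCl4 mice, against 204 to 706 CPM in non-cycling cells (-2.68, SE 0.19). Bcl2, the survival factor, was lower in cycling cells of every mouse (-1.65, SE 0.14). Mxd4, a repressor that opposes MYC, was at 17.7 to 93.8 CPM against 114 to 295 CPM (-1.56, SE 0.12). Cxcr6, a homing receptor of liver-resident T cells, was also lower, at 117 to 373 CPM against 249 to 676 CPM (-0.84, SE 0.12). Its list, of tissue residence and homing genes, had 1 higher and 7 lower of 13 (median -0.37).

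Of the D-type cyclins and the kinases and inhibitors around them, 8 of 13 genes were higher and 3 lower. Ccnd2, the cyclin that carries growth signals into the cycle, was among the lower ones, at 246 to 537 CPM in cycling and 706 to 1298 CPM in non-cycling cells (-1.36, SE 0.11). Cdkn1b, the p27 inhibitor that holds cells out of the cycle, was also lower (-0.77, SE 0.14), whereas Cdkn2c, the p18 inhibitor, was higher (1.96, SE 0.20). Energy genes were higher by less. Glycolysis had 9 of 15 genes higher and 0 lower (median 0.59), with Gapdh, its most abundant gene, at 516 to 1607 CPM against 386 to 797 CPM (0.95, SE 0.12), Tpi1, the triosephosphate isomerase, at 129 to 343 CPM against 70.0 to 148 CPM (1.29, SE 0.12) and Ldha, the lactate dehydrogenase, at 528 to 770 CPM against 283 to 441 CPM (0.86, SE 0.10). Nuclear genes of the mitochondrial respiratory chain had 18 of 22 higher and 0 lower (median 0.48).

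Other programs were lower or mixed. Interferon-stimulated genes had 0 higher and 11 lower of 15 (median -0.72), helper T cell factors 0 higher and 7 lower of 10 (median -0.62), and NK and innate-like receptors 0 higher and 7 lower of 10 (median -0.46). Immediate early and heat shock genes, which rise during tissue dissociation, had 2 higher and 9 lower of 16. Cytotoxic effectors were split, with 4 higher, 3 lower and 8 not called of 15 (median -0.03), where 43.9% of all genes were called. DESeq2 had 1 of these 15 higher and 3 lower, and among cells of the CD8 lineage 0 were higher and 4 lower of 14. Of 15 inhibitory receptors and exhaustion factors 2 were higher and 1 lower (median 0.12), and among CD8 cells 0 were higher and 2 lower of 9. Gzmb, the granzyme that starts death of target cells, was higher in cycling cells (0.66, SE 0.23), but its cycling value lay below the non-cycling value in all 3 WD+F+CCl4 mice.

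Markers of other cell types differed as well, and their part in these values was not tested. All 12 hepatocyte genes that could be tested were lower in cycling cells (median -1.06), from summed levels of 4998 and 6648 CPM in non-cycling cells of the control mice to 1959 and 1957 CPM in cycling cells. The 3 neutrophil genes tested and 8 of 12 myeloid genes were also lower. Of 7 dendritic cell genes, 4 were higher (Cd74 and the MHC class II genes H2-Aa, H2-Ab1 and H2-Eb1) and 2 lower (Siglech and Bst2), whereas DESeq2 had 1 higher and 2 lower, the most abundant gene of that list being Cd74 (41.5% of its UMIs in members). Single members held 79.9% and 86.7% of the list's UMIs in HFD+F+CCl4 replicate 1 and WD+F+CCl4 replicate 1. Without them the sums fell from 7644 to 1879 CPM and from 3861 to 621 CPM, against 2331 and 1906 CPM in non-cycling cells. In HFD+F+CCl4 replicates 2 and 3 the sum was lower in cycling cells (1650 against 2412 CPM and 2085 against 2357 CPM), and in the other mice it was higher. Where the comparison was limited to cells with at least 3000 UMIs, all 14 naive and memory genes were still lower (median -1.26) and 7 of 15 glycolysis genes higher.

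**Figure D3:**
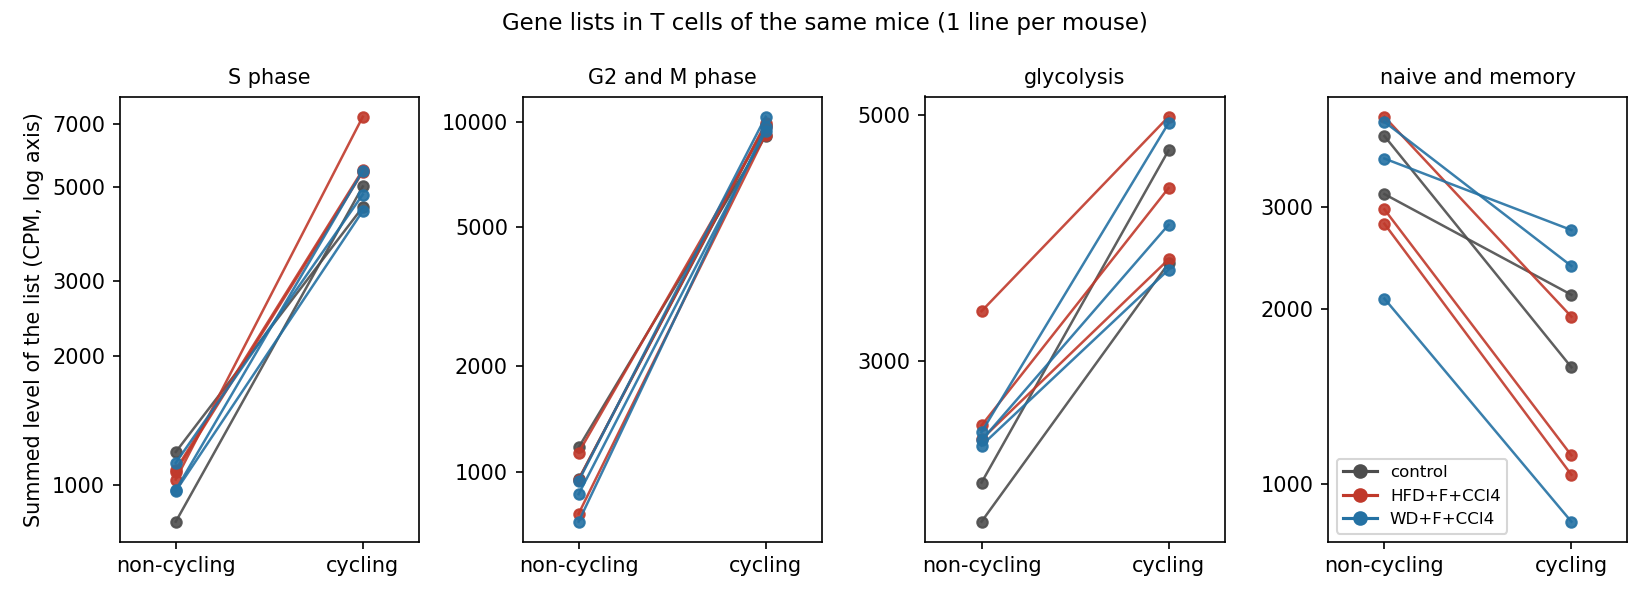
Summed CPM (log axis) of 4 gene lists in non-cycling and cycling T cells, with 1 line per mouse coloured by group. The S phase and the G2 and M phase lists rise in all 8 mice, glycolysis rises from 2149 to 3327 CPM up to 3626 to 4983 CPM, and the naive and memory list falls in all 8.

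The members were divided between CD8 and CD4 lineages by their own UMIs. Of the 529, 263 held Cd8a or Cd8b1 and no Cd4, 130 held Cd4 alone, 10 held both and 126 held neither. The 2 control mice had the most unassigned members, 59 of 122 and 21 of 45. Among members of a single lineage, CD8 cells made up 32.8% and 79.2% in control mice, 78.6%, 91.3% and 89.0% in HFD+F+CCl4 mice and 66.7%, 65.5% and 42.0% in WD+F+CCl4 mice. HFD+F+CCl4 replicates 2 and 3 were the highest and control replicate 1 the lowest, so that the 2 controls lay far apart. The mean was 72.2% ± 18.3 (SD, n = 6) in NASH and 56.0% ± 32.8 (SD, n = 2) in control mice, which is 16.2 points higher in NASH mice (p = 0.429 by an exact permutation test, adjusted p = 0.619); NASH minus control became -6.98 without control replicate 1. Set against non-cycling T cells of the same mice, the CD8 share was 68.1% ± 21.2 in cycling and 67.9% ± 10.3 in non-cycling cells (SD, n = 8), and it was higher in cycling cells of 4 of 8 mice.

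**Figure D4:**
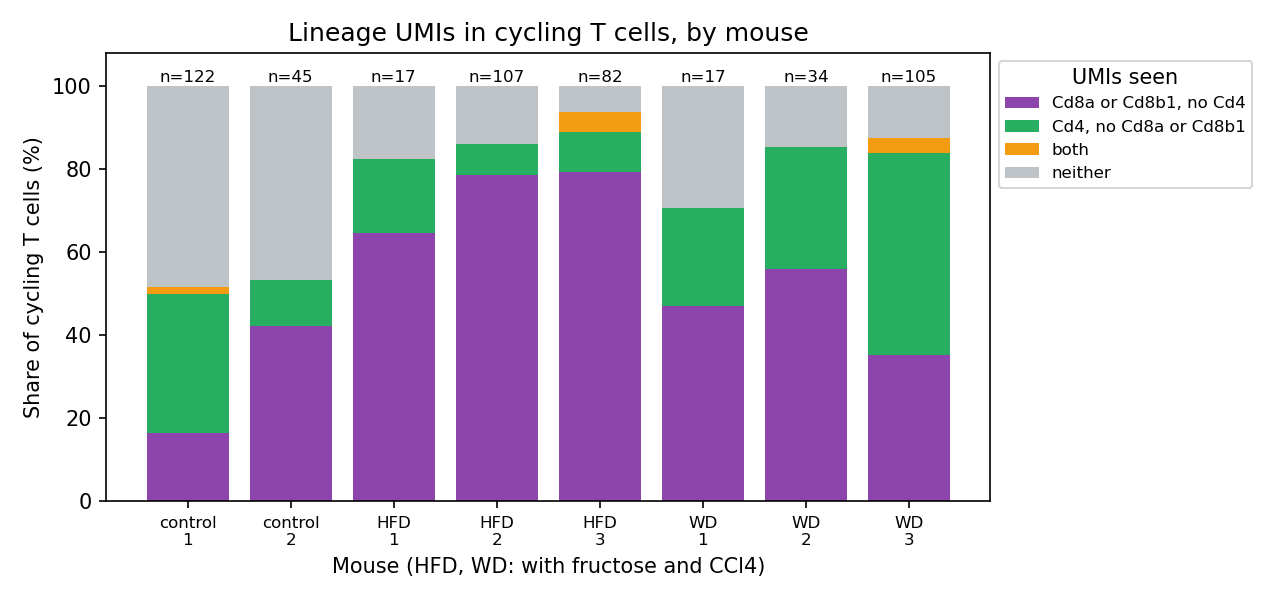
Share of cycling T cells (vertical axis, %) of each mouse (horizontal axis) that held UMIs of Cd8a or Cd8b1, of Cd4, of both or of neither, with the number of members above each bar. The CD8 part is widest in HFD+F+CCl4 replicates 2 and 3, and the unassigned part in the control mice.

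Some genes had the same direction between cycling CD8 and CD4 cells in all 8 mice, and they are described without a test. The values here are summed over mice, and the direction in each mouse is given beside them. The CD4 side was 3 members in HFD+F+CCl4 replicate 1, 4 in WD+F+CCl4 replicate 1 and 5 in control replicate 2. A direction in these mice therefore rests on few cells, and the share of all genes with the same direction in every mouse is not given. Gzma, a granzyme, stood at 2848 CPM in cycling CD8 cells and 8.69 CPM in cycling CD4 cells and was higher in CD8 cells of 8 of 8 mice. Klrd1, the CD94 receptor chain, stood at 563 against 36.5 CPM and Ctsw, a protease of cytotoxic granules, at 247 against 149 CPM, both higher in 8 of 8 mice. Ccl5, the chemokine RANTES, stood at 6998 against 3091 CPM (higher in 7 of 8).

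On the CD4 side, Maf, a transcription factor of helper cells, stood at 517 CPM against 43.2 CPM and was higher in CD4 cells of 8 of 8 mice. The costimulatory receptor Cd28 (227 against 79.3 CPM) was also higher in CD4 cells of 8 of 8 mice. Gzmk, a granzyme of memory-like T cells, summed to 192 CPM in CD8 and 202 CPM in CD4 cells (higher in CD8 cells of 5 of 8 mice). WD+F+CCl4 replicate 3, with the highest Gzmk level of all mice, gave 51 of the 130 CD4 and 37 of the 263 CD8 members. These sums therefore also depend on which mice gave each lineage. Single cycle genes were compared between the lineages without a test. Ccna2 stood at 217 CPM in CD8 and 216 CPM in CD4 cells (higher in CD8 cells of 4 of 8 mice). Cdk1 stood at 216 against 230 CPM and Kif11 at 201 against 191 CPM (each higher in CD8 cells of 3 of 8 mice). Aurka, a mitotic kinase, and Tyms, the thymidylate synthase, were picked after their values were seen. They stood at 45.6 against 87.7 CPM and at 138 against 192 CPM, both lower in CD8 cells of 7 of 8 mice.

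Compared with control mice, cycling T cells of HFD+F+CCl4 mice carried more transcripts of cytotoxic and inhibitory genes. Of 13 naive and memory genes 2 were lower, Tcf7 and Satb1, and Satb1 was also lower in all kept cells of the NASH libraries. The fit of all 8 mice with edgeR called 62 genes higher and 39 lower of 6579 (1.54% in all, 0.942% higher and 0.593% lower), while groups did not overlap in 26.4% of the genes. In WD+F+CCl4 mice 27 genes were higher and 31 lower (0.882% in all, 0.41% higher and 0.471% lower), and groups did not overlap in 24.0%. Both comparisons used the same 2 control mice, and their values are given side by side. These p-values measure the spread between mice. Without control replicate 1, whose members held most of the control UMIs, 4 genes were called in HFD+F+CCl4 mice (mt-Nd3 higher, Satb1, Ehd3 and Ighm lower) and 1 in WD+F+CCl4 mice (mt-Nd3), and 0 cytotoxic or inhibitory genes. In HFD+F+CCl4 mice the calls were also down to 27 without HFD+F+CCl4 replicate 2 and to 23 without HFD+F+CCl4 replicate 3, and in WD+F+CCl4 mice to 19 without WD+F+CCl4 replicate 3.

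Of 14 inhibitory receptors and exhaustion factors tested, 9 were higher in HFD+F+CCl4 mice (median log2 fold change 3.76, against 0.01 over all genes) and 6 in WD+F+CCl4 mice (median 2.92, against -0.00095 over all genes), and 0 were lower in either. DESeq2 called 5 and 3 of the 14. Among members of the CD8 lineage edgeR called 3 of 11 and 0 of 11, with medians of 3.77 and 2.61. Pdcd1, which encodes the inhibitory receptor PD-1, stood at 9.54 and 31.6 CPM in cycling cells of control mice, at 165, 183 and 247 CPM in HFD+F+CCl4 mice and at 63.8, 79.0 and 174 CPM in WD+F+CCl4 mice. Every NASH mouse lay above both controls. The log2 fold change was 4.07 (SE 0.52, edgeR adjusted p = 0.000362) in HFD+F+CCl4 and 3.33 (SE 0.53, adjusted p = 0.00489) in WD+F+CCl4 mice. The controls held 11 and 3 UMIs of it.

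Lag3, a further inhibitory receptor that binds MHC class II, stood at 8.67 and 10.5 CPM in control mice. It reached 259, 230 and 433 CPM in HFD+F+CCl4 mice (5.11, SE 0.58, edgeR adjusted p = 9.8e-05) and 54.7, 16.9 and 98.2 CPM in WD+F+CCl4 mice (2.92, SE 0.63, adjusted p = 0.0334). Tox, a transcription factor of chronically stimulated T cells, stood at 20.8 and 63.2 CPM in controls, at 141, 347 and 353 CPM in HFD+F+CCl4 mice (3.45, SE 0.60, adjusted p = 0.00575) and at 201, 102 and 385 CPM in WD+F+CCl4 mice (3.16, SE 0.60, adjusted p = 0.0156). For both genes the groups did not overlap, and the lowest NASH value of Lag3, in WD+F+CCl4 replicate 2, was near the controls. Eomes, a T-box factor of effector and memory cells, stood at 3.47 and 10.5 CPM in controls (4 and 1 UMIs), at 129, 83.5 and 85.2 CPM in HFD+F+CCl4 mice and at 45.6, 56.5 and 194 CPM in WD+F+CCl4 mice. Its log2 fold changes were 4.38 (SE 0.73, edgeR adjusted p = 0.00413) and 4.80 (SE 0.71, adjusted p = 0.00233).

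Cytotoxic effectors had 8 of 14 genes higher in HFD+F+CCl4 mice (median 1.96) and 2 of 14 in WD+F+CCl4 mice (median 0.87), with 0 lower in either. DESeq2 called 4 and 3 of the 14. Among members of the CD8 lineage edgeR called 3 of 13 and 0 of 13, with medians of 1.90 and 1.42. Gzmk stood at 6.94 and 10.5 CPM in control mice (8 and 1 UMIs), at 165, 215 and 177 CPM in HFD+F+CCl4 mice (4.66, SE 0.87, edgeR adjusted p = 0.00982) and at 27.4, 90.3 and 433 CPM in WD+F+CCl4 mice (4.90, SE 0.86, adjusted p = 0.00869). The spread among WD+F+CCl4 mice was wide, with replicate 3 the highest of all mice. Ccl5 stood at 1009 and 1242 CPM in controls, at 5961, 7085 and 6918 CPM in HFD+F+CCl4 mice (2.57, SE 0.42, adjusted p = 0.004) and at 2535, 3433 and 6652 CPM in WD+F+CCl4 mice (1.91, SE 0.41, adjusted p = 0.0323). The other genes called in HFD+F+CCl4 mice were Gzmb, Nkg7 (a granule protein), Cst7, Prf1 (perforin) and the chemokines Ccl3 and Ccl4. Prf1 stood at 35.3, 115 and 291 CPM there and at 0, 50.8 and 60.2 CPM in WD+F+CCl4 mice, against 12.1 and 10.5 CPM in controls.

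The share of CD8 cells differed between mice, and so did CD8 lineage genes, but the genes did not always follow the share. Control replicate 2, with a CD8 share of 79.2%, had a CD8 lineage sum of 554 CPM. WD+F+CCl4 replicate 3, with a share of 42.0%, had 812 CPM. Cd8a stood at 46.0 and 190 CPM in controls, at 329, 566 and 809 CPM in HFD+F+CCl4 mice (2.77, SE 0.53, edgeR adjusted p = 0.0106) and at 219, 367 and 292 CPM in WD+F+CCl4 mice (1.79, SE 0.53, adjusted p = 0.164). The comparison was therefore also limited to members of the CD8 lineage, in which 13 genes were higher and 17 lower in HFD+F+CCl4 mice. The share of all genes called in this fit is not given, so the list counts in CD8 members above stand without that share beside them. There Pdcd1 (4.36, edgeR adjusted p = 0.0359), Lag3 (4.43, 0.0395), Gzmk (3.20, 0.0163) and Ccl5 (1.90, 0.0395) were still called, and Eomes (2.03, 0.107) and Tox (3.40, 0.0855) were not. In CD8 members of WD+F+CCl4 mice none of these 6 genes was called, with Gzmk at 2.65 (adjusted p = 0.132). The median log2 fold change there was 2.61 over 11 inhibitory genes and 1.42 over 13 cytotoxic genes. In all members of these mice the medians were 2.92 and 0.87, over 14 genes each.

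Satb1 and Igtp were lower, as they were in all kept cells of the NASH libraries, and whether their fall goes beyond that split was not tested. Satb1, the chromatin organizer of naive T cells, stood at 290 and 232 CPM in control mice, at 23.5, 16.4 and 25.5 CPM in HFD+F+CCl4 mice (-3.67, SE 0.34, edgeR adjusted p = 7.71e-06) and at 63.8, 73.4 and 39.3 CPM in WD+F+CCl4 mice (-2.37, SE 0.32, adjusted p = 0.000728). Igtp, an interferon-induced GTPase, stood at 200 and 168 CPM in controls and at 23.5 to 39.5 CPM in the 6 NASH mice (-2.54, SE 0.30, adjusted p = 0.000135, and -2.47, SE 0.32, adjusted p = 0.000434). Tcf7, the transcription factor of naive and stem-like T cells, stood at 119 and 147 CPM in controls and at 23.5, 34.2 and 25.5 CPM in HFD+F+CCl4 mice (-2.09, SE 0.39, adjusted p = 0.0101). In WD+F+CCl4 mice it was at 155, 102 and 56.3 CPM (-0.51, SE 0.38, adjusted p = 0.76), so that these mice overlapped the controls. The other naive and memory genes were not called, with 0 higher and 2 lower of 13 in HFD+F+CCl4 and 0 higher and 1 lower in WD+F+CCl4 mice.

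**Figure D5:**
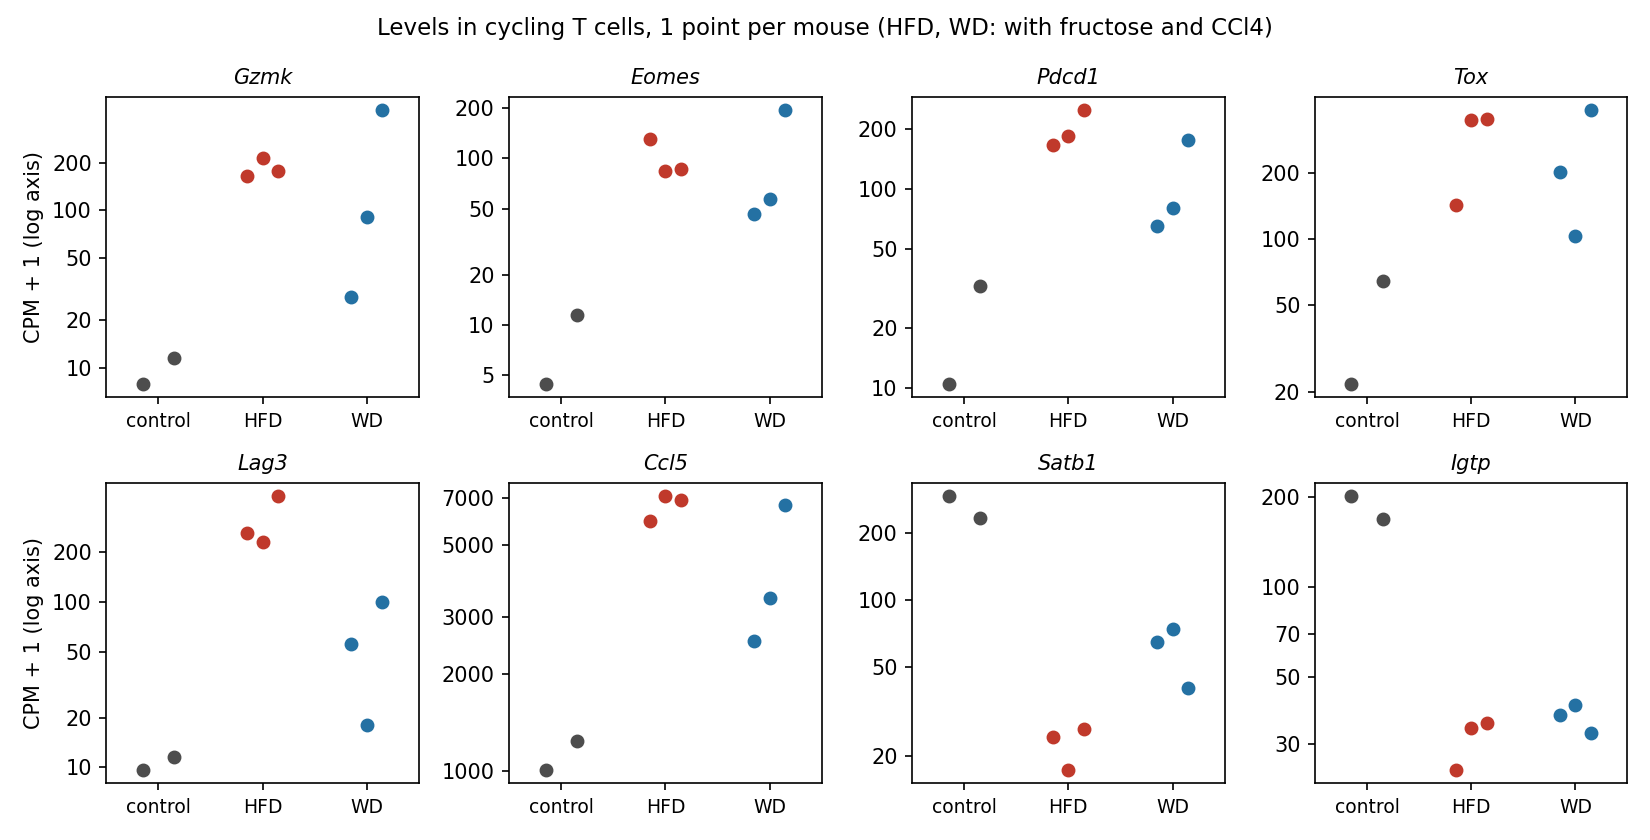
Levels of 8 genes in cycling T cells (CPM + 1, log axis) in the 2 control mice and the 3 mice of each model, 1 point per mouse. Gzmk, Eomes, Pdcd1, Tox, Lag3 and Ccl5 are higher in all 6 NASH mice than in both controls, and Satb1 and Igtp are lower. All 8 are among the genes named for WD+F+CCl4 mice, which had to be called without overlap with control, so this separation was partly fixed by the choice. Groups did not overlap in 26.4% of all genes for HFD+F+CCl4 and 24.0% for WD+F+CCl4 mice. The share of genes that separate all 6 NASH mice from both controls is not given.

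Few genes of the cycle differed between the groups. None of the 30 S phase genes, the 30 G2 and M phase genes or the 15 chromatin genes was called in either model by edgeR (medians 0.20, 0.07 and 0.25 in HFD+F+CCl4 and -0.08, 0.23 and 0.33 in WD+F+CCl4 mice). The log2 ratio of S phase to G2 and M phase UMIs in members was higher in NASH mice by 0.16 (exact permutation test, p = 0.464). This difference was 0.0547 without HFD+F+CCl4 replicate 1 and 0.282 with cells thinned to 1000 UMIs. Of 14 genes of the cyclin, kinase and inhibitor list, 1 was higher in HFD+F+CCl4 and 0 in WD+F+CCl4 mice. This was Cdk6, the kinase that D-type cyclins activate, at 59.0 and 42.1 CPM in control mice, at 212, 235 and 284 CPM in HFD+F+CCl4 mice (2.16, SE 0.36, edgeR adjusted p = 0.00414) and at 82.1, 158 and 213 CPM in WD+F+CCl4 mice (1.57, SE 0.37, adjusted p = 0.0507). Hist2h2aa1, a histone H2A gene outside the lists, was higher in both models (1.91, SE 0.41, edgeR adjusted p = 0.0214, and 2.59, SE 0.41, adjusted p = 0.00482), and DESeq2 called 1 of the 15 chromatin genes in WD+F+CCl4 mice. Glycolysis had 0 of 16 genes called in either model.

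Some of the genes called belong to other cell types or set the libraries apart as a whole. Hepatocyte genes had 4 of 15 lower in HFD+F+CCl4 and 8 of 15 lower in WD+F+CCl4 mice, and their summed level in members was 1959 and 1957 CPM in control mice, 1396, 753 and 163 CPM in HFD+F+CCl4 mice and 172, 45.7 and 550 CPM in WD+F+CCl4 mice, with Alb the most abundant (28.6% of the list). Of 12 myeloid genes, 3 were higher in HFD+F+CCl4 mice, all of the complement C1q complex of macrophages, and 1 of them in WD+F+CCl4 mice. C1qb stood at 1.73 and 0 CPM in controls, at 306, 94.4 and 23.8 CPM in HFD+F+CCl4 mice and at 9.12, 16.9 and 128 CPM in WD+F+CCl4 mice. The summed myeloid list overlapped between the groups, at 1635 and 3348 CPM in controls, 5635, 1869 and 1282 CPM in HFD+F+CCl4 mice and 2505, 2256 and 1813 CPM in WD+F+CCl4 mice, with Cst3 the most abundant (47.7%). The B and plasma cell list summed to 480 and 1174 CPM in control mice and to between 68.5 and 261 CPM in NASH mice. The red blood cell list, of which Hbb-bs was the most abundant gene (57.5%), stood at 172 and 489 CPM in members of the control mice, at 0, 4231 and 5457 CPM in HFD+F+CCl4 mice and at 25.7, 22.8 and 3402 CPM in WD+F+CCl4 mice. It was highest in HFD+F+CCl4 replicates 2 and 3 and WD+F+CCl4 replicate 3, which also had the highest sums of the cytotoxic list, and 0 of its 4 genes tested were called in either model (medians 3.73 and 2.37), while 2 of 4 were higher in CD8 members of HFD+F+CCl4 mice. Single members held 62.5%, 41.5% and 57.1% of the list's UMIs in these 3 mice, and without them the sums were 1594, 3216 and 1516 CPM. The part of RNA from other cells in these differences was not tested.

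The library split named above was present in the members too. The mitochondrial gene mt-Nd3 stood at 1.67 and 10.9 CPM in members of the control mice and at 560 to 1008 CPM in those of NASH mice. Gm28438 stood at 287 and 261 CPM in members of the control mice and was not seen in those of the 6 NASH mice. The ribosomal protein gene Rps6 stood at 880 and 1055 CPM in members of the control mice and at 268 to 452 CPM in NASH mice (-1.38, SE 0.30, edgeR adjusted p = 0.0214, and -1.56, SE 0.30, adjusted p = 0.0156), and in all kept cells at 680 and 689 CPM against 176 to 280 CPM. Tmsb10, an actin-binding peptide, stood at 7775 and 7914 CPM in members of the control mice and at 1944 to 5242 CPM in NASH mice, and in all kept cells at 5402 and 4091 CPM against 904 to 2100 CPM.

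Between the models no gene passed the edgeR test. Comparing WD+F+CCl4 with HFD+F+CCl4 mice, edgeR called 0 of 6579 genes (0.0%), of which 262 had an unadjusted p under 0.05. DESeq2 called 1 gene, the inhibitory receptor Lag3, lower in WD+F+CCl4 mice (-2.31, SE 0.50, DESeq2 adjusted p = 0.0202). By edgeR, Lag3 was at -2.19 (SE 0.38, edgeR adjusted p = 0.12). The SEs of the 2 programs are derived differently and cannot be set against each other. Cytotoxic effectors had a median log2 fold change of -0.76 and inhibitory receptors of -0.90, and groups did not overlap in 9.59% of all genes. Apart from Lag3 by DESeq2, genes called in only 1 of the models against control are not shown to differ between the models.

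Whether the NASH change differed between cycling and non-cycling T cells was also tested. The difference of the NASH change between the 2 kinds of cell was tested as an interaction over 10126 genes, of which edgeR called 15 higher and 5 lower (0.198% in all, 0.148% higher and 0.0494% lower), and DESeq2 called 0 (without adjustment, 430 and 167 genes were past 0.05). Without control replicate 1 the count was 7, and without WD+F+CCl4 replicate 3 it was 8. For Pdcd1 the non-cycling levels were 6.97 and 6.44 CPM in control mice, 45.9, 181 and 271 CPM in HFD+F+CCl4 mice and 16.3, 34.1 and 219 CPM in WD+F+CCl4 mice, and the interaction was -0.57 (SE 0.56, edgeR adjusted p = 1). For Gzmk it was -0.38 (SE 0.59), for Lag3 -0.81 (SE 0.63), for Ccl5 -0.10 (SE 0.30) and for Satb1 -0.89 (SE 0.32, adjusted p = 0.761).

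Eomes was among the genes called, with an interaction of 2.66 (SE 0.58, edgeR adjusted p = 0.0197). Non-cycling cells of the control mice held 20 and 23.2 CPM of it, above the 3.50 and 9.50 CPM of cycling cells in this fit, while non-cycling cells of NASH mice held 42.2 to 159 CPM and cycling cells 44.4 to 198 CPM. Ifitm3, an interferon-induced membrane protein, had an interaction of 1.69 (SE 0.31, adjusted p = 0.00103), with cycling levels below non-cycling levels in both controls (44.6 and 95 against 143 and 394 CPM) and above them in 2 of the 6 NASH mice. Glrx, the glutaredoxin that reduces protein disulfides, went the other way (-1.20, SE 0.28, adjusted p = 0.0337), and none of these 3 genes was called without control replicate 1.

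Cycling T cells were also set beside cycling cells with transcripts of Csf1r, the growth factor receptor of macrophages. These were 2023 kept cells that passed the Top2a and Mki67 limit with at least 1 UMI of Csf1r and 0 UMIs of Cd3 genes and Cd79a, and 7 mice entered this comparison, because control replicate 2 had 2 such cells. The rule sets Cd3 against Csf1r here, so the values are again a description. Of 8476 genes, 1573 were higher and 1933 lower in cycling T cells (41.4%). T cell receptor and signaling genes led, with Bcl11b, a T lineage factor, at 9.62 and Trac, the receptor alpha constant region, at 9.35 on the log2 scale. F13a1 (-5.47) and Tgfbi (-4.67), genes of macrophages, led the other side.

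Division genes were expressed in both kinds of cycling cell, with somewhat higher levels in T cells. Of 30 S phase genes 15 were higher in T cells and 0 lower (median 0.50), of 30 G2 and M phase genes 17 were higher and 1 lower (median 0.45), and of 15 chromatin genes 12 were higher (median 0.57). Glycolysis had 4 higher and 3 lower of 16 (median -0.01), and interferon-stimulated genes had 1 higher and 6 lower of 15 (median -0.21).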

How the data were processed

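Livers of 8 mice gave 1 single-cell library each. Per the labels and the study's methods, the authors demultiplexed reads with bcl2fastq (2.20) and made UMI counts per gene and barcode with Cell Ranger against the mouse genome GRCm38 (the notes also name the human GRCh38), and the deposited matrix holds these raw counts, with the library in the barcode suffix. Its header names an earlier Cell Ranger version than the methods. Library totals ranged from 6135827 to 64855024 UMIs, which limits the precision of control replicate 2 most. Cell classes were set by UMI limits, with no clustering. Doublets were not removed in the main results.

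UMIs were summed per mouse and class and tested with edgeR 4.0.16 (quasi-likelihood, TMM scaling, filterByExpr with a minimum count of 10, Benjamini-Hochberg adjustment over all genes, threshold 0.05) in R 4.3.3. Comparisons within mice had the mouse as a block, and the comparisons between groups used all 8 mice. The SE beside an edgeR log2 fold change was worked back from its test, as the absolute change over the square root of the F statistic. DESeq2 estimates its SE directly. Shares were compared by exact two-sided permutation tests over every possible split, and their Clopper-Pearson intervals came from scipy 1.17.1. CPM are scaled by TMM, except in the list sums, the library split, the lineage sums and the value of 1 UMI, which use plain totals. In simulated counts in which 200 genes had a log2 change of 2, edgeR recovered 75% for HFD+F+CCl4 and 71% for WD+F+CCl4 against control (6059 and 6147 genes), with 13 and 16 false calls beside 150 and 142 true ones, and DESeq2 recovered 49% and 46%, with 1 and 5 false calls.

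The members and the gene lists were chosen with earlier results of these data known. Genes named are those on the lists, the most abundant first, and outside the lists the 10 largest changes in each direction among genes past the threshold with a mean log2 CPM over 6, the same direction in every mouse or groups that did not overlap. Some examples within lists, the genes not called that are compared with them, and Gm28438, Rps6, Tmsb10, Aurka and Tyms were picked after their values were seen. Alternatives were DESeq2 1.42.0, no scaling, no filter, other cell limits, thinned cells, removal of likely doublets or mixed cells, a replicate block and leaving out each mouse. The 8 mice are taken as separate animals as labelled. Counts cannot separate genes with near-identical copies.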

Additional observations from a re-analysis of the deposited data

Results flagged for a closer look

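Of 27 sets of 6 NASH mice examined for 1 mouse far from the rest, 5 held one, where chance gives about 1 in 20 (5%). HFD+F+CCl4 replicate 1, with 17 members, had a log2 ratio of S phase to G2 and M phase UMIs of -0.33, against -1.11 to -0.82 in the other NASH mice. Its S phase list stood at 7292 CPM, against 4386 to 5474 CPM in the others. Its myeloid list stood at 5635 CPM, against 1282 to 2505 CPM in the others, and at 3423 CPM without the 1 member that held 50.2% of those UMIs. In WD+F+CCl4 replicate 3 the neutrophil list summed to 5394 CPM, against 38.8 to 874 CPM in the others, but 1 of its 105 members held 4203 of the 4240 UMIs (99.1%), and without that cell the sum was 47.6 CPM. Its list of endothelial, stellate and bile duct genes stood at 777 CPM, against 34.3 to 274 CPM in the others, with Spp1 as the most abundant gene, and 1 member held 82.5% of these UMIs, without which the sum was 140.0 CPM.

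In 9 named genes the change in NASH against control mice differed between cycling and non-cycling T cells by edgeR's interaction test. The log2 change was higher, as a signed value, in cycling cells for Eomes (2.66, adjusted p = 0.0197), Klrc1 (2.27, adjusted p = 0.0197), Dapl1 (3.05, adjusted p = 0.0303), Ifitm3 (1.69, adjusted p = 0.00103) and Ttr (1.5, adjusted p = 0.0211). It was lower in cycling cells for Icos (-1.33, adjusted p = 0.0359), Klra1 (-2.71, adjusted p = 0.0403), Hspa1b (-1.80, adjusted p = 0.0403) and Glrx (-1.20, adjusted p = 0.0337). DESeq2 called 0 of these 9 genes, and edgeR called 0 of them without control replicate 1. For Klrc1, an NK receptor chain, cycling levels were 10.5 and 19.0 CPM in control mice and 16.1 to 74.7 CPM in NASH mice, and non-cycling levels 62.7 and 55.4 CPM against 23.8 to 56.3 CPM. Ttr is a hepatocyte gene, at 105 and 85.5 CPM in cycling and 294 and 314 CPM in non-cycling cells of the control mice, and at 5.61 to 68.3 CPM and 5.18 to 89.7 CPM in NASH mice, so that its positive value stands for a smaller fall in cycling cells.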

How the results depend on the processing

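The difference in the cycling share of T cells between NASH and control mice was -0.551 with cells thinned to 1000 UMIs and -4.84 without cells holding myeloid or B cell UMIs, a limit that marked 85.1% of members and left 5 NASH and 2 control mice. It ranged from 0.0282 to 2.62 when mice were left out in turn, and WD+F+CCl4 against HFD+F+CCl4 from -6.89 to -3.37. The share of kept cells became -1.23 (thinned to 2000 UMIs), -0.432 (without mixed cells) and -1.48 (more than 1000 genes), each at p = 0.0357 in an exact permutation test, the smallest possible, and ranged from -0.644 to -0.461 with a mouse left out. The CD8 share of cycling against non-cycling cells was -1.42 thinned and -0.669 without the cells that stand apart (range -1.95 to 2.92), and that of NASH against control ranged from -6.98 to 39.4. The log2 S to G2 and M ratio ranged from 0.0547 to 0.210 with a mouse left out. Without mixed cells its value of -0.675 compares 1 NASH mouse with 2 controls, since the others had under 5 such members, and says nothing of its direction.

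Genes called in cycling against non-cycling cells were 327 without mixed cells, with only the 2 control mice and WD+F+CCl4 replicate 3 left. They were 1571 in CD8 cells and 2023 without the mouse as a block (3362 as reported, range 2490 to 3486). Without scaling, 1650 were higher and 1542 lower. For HFD+F+CCl4 against control, counts were 37 by DESeq2, 316 with no filter, 30 in CD8 cells, 206 with at least 20 members per mouse, 159 with the 2 groups alone and 32 with the replicate block, and ranged from 4 without control replicate 1 to 210 without HFD+F+CCl4 replicate 1 (158 without WD+F+CCl4 replicate 2). For WD+F+CCl4 against control (58), they were 29 by DESeq2 (17 higher, 12 lower), 239 with no filter, 14 in CD8 cells (2 higher, 12 lower), 110 with at least 20 members and 20 with the block, and ranged from 1 to 132, with 28 and 31 without HFD+F+CCl4 replicates 2 and 3. For WD+F+CCl4 against HFD+F+CCl4 (0), they were 1 by DESeq2, 67 with no filter, 5 without cells ranked highest by Scrublet, 5 in CD8 cells, 5 with at least 20 members and 5 with the block, and ranged from 0 to 12, the latter without HFD+F+CCl4 replicate 1. The interaction (20) gave 0 by DESeq2, 4 in CD8 cells and 15 without scaling (13 higher, 2 lower), and ranged from 7 to 29. Against cycling Csf1r cells (3506) the count was 267 without mixed cells (range 2722 to 4142). The cause of these changes was not tested.

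Replicate numbers are shared between groups, but same-numbered mice did not deviate together (correlations -0.0958 to 0.0569), so they do not pair the mice. With the replicate block the share differences were 0.606, -5.02, -0.681 and 19.5, and the log2 ratio 0.226, where the smallest possible p was 0.111 (0.25 between the models), so that these tests could call nothing. Without mixed cells the HFD+F+CCl4 comparisons were not possible and the interaction could not be fitted. The 34 and 24 named genes against control kept their direction in every alternative, but 4 and 1 were called without control replicate 1. Of the interaction genes, Ttr became -0.31 in CD8 cells and Dapl1 ranged from -1.10 without control replicate 1 to 9.04 without control replicate 2. The CD8 restriction and the removal of cells that stand apart were chosen after seeing the data.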

Other observations

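Share of each lineage in cycle was not part of a comparison. Of CD8 T cells, 5.28% and 18.4% were cycling in the control mice, 22.9%, 19.2% and 16.0% in HFD+F+CCl4 mice and 4.04%, 7.31% and 8.69% in WD+F+CCl4 mice. Of CD4 T cells, 10.6% and 11.9% were cycling in control mice, 12%, 10.5% and 6.20% in HFD+F+CCl4 mice and 5.63%, 8.77% and 15.5% in WD+F+CCl4 mice. The 2 control mice lay far apart in the CD8 share and close in the CD4 share.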
